A study of Mus musculus with 4 samples.

Results

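The 9 Wnt ligands and secreted Wnt modulators described here were matched by symbol among the 31054 features of the gene table, 1 row each, and followed across the cells of aged gonadal fat. They are the ligands Wnt5a, Wnt11 and Wnt2, and the modulators Sfrp1, Sfrp2, Sfrp4, Frzb, Wif1 and Wisp2. They were taken by name, not by a measured value, but the set was chosen with earlier results of these data known. The cells were those of the stromal vascular fraction, the non-adipocyte part of the tissue, from male p16-CreERT2/R26-LSL-tdTomato mice 18 months old. The mice carried both transgenes and received tamoxifen, after which cells with an active p16 (Cdkn2a) promoter express tdTomato for good. A cell that switched p16 on later stays without it. Cells were sorted on CD45, a surface protein of leukocytes, and on tdTomato, giving 1 library for each of 4 labels. Where 4 values are listed, the libraries labelled CD45- come first and those labelled CD45+ after them, each time with Tom+ before Tom-. With 1 library per group no test between groups was possible, and the number of mice behind a library is not given in the sources used here.

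Wnt proteins are secreted, lipid-modified ligands that bind Frizzled receptors. Together with Lrp5 or Lrp6 they stabilise beta-catenin, which acts with TCF and LEF factors on target genes, while Wnt5a and Wnt11 are best known for signalling without beta-catenin, for example through Ror receptors. In fat, beta-catenin signalling is known to hold precursors back from adipogenesis. Sfrp1, Sfrp2, Sfrp4 and Frzb (also called Sfrp3) encode secreted frizzled-related proteins, which share the ligand-binding domain of the receptors and bind Wnt proteins outside the cell. Wif1 binds Wnt proteins through a different domain. Wisp2 (Ccn5) is a secreted CCN protein made by mesenchymal precursor cells.

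The members lie on 8 chromosomes of mm10 and are annotated as protein-coding genes in GENCODE vM21. Wnt5a (ENSMUSG00000021994) is on chromosome 14 from 28504750 to 28527448 and Wnt11 (ENSMUSG00000015957) on chromosome 7 from 98835112 to 98855195, both on the plus strand. Wnt2 (ENSMUSG00000010797) is on the minus strand of chromosome 6 from 17988940 to 18030585. On plus strands, Sfrp1 (ENSMUSG00000031548) spans 23411502 to 23449632 of chromosome 8, Sfrp2 (ENSMUSG00000027996) 83766321 to 83774316 of chromosome 3 and Sfrp4 (ENSMUSG00000021319) 19623104 to 19632994 of chromosome 13. Frzb (ENSMUSG00000027004) and Wisp2 (ENSMUSG00000027656) share chromosome 2, Frzb on the minus strand from 80411970 to 80447625 and Wisp2 on the plus strand from 163820861 to 163833146. Wif1 (ENSMUSG00000020218) is on the plus strand of chromosome 10 from 121033960 to 121100650.

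Sequences upstream of a RefSeq start are shown for Sfrp2, the main member in mesothelial-like cells, Frzb, whose mean was highest in a progenitor subset low in Sfrp2, and Wnt11, which was highest in dendritic-like cells. Each is the 250 bases before a RefSeq start on GRCm38.p6, written in the direction of transcription, and 5 of the 9 members matched an entry. Capitals mark matches on either strand to CTTTGAA or CTTTGAT (words bound by TCF and LEF factors), the TATA box word TATAAA, the CCAAT box or the GC box word GGGCGG.
Sfrp2, chr3:83766071-83766320, plus strand: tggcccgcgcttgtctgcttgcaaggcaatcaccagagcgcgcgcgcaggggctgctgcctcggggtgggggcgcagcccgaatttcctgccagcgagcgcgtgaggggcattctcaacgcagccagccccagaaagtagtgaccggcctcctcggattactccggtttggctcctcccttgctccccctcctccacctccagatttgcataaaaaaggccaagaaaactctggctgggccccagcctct
Frzb, chr2:80447397-80447646, minus strand: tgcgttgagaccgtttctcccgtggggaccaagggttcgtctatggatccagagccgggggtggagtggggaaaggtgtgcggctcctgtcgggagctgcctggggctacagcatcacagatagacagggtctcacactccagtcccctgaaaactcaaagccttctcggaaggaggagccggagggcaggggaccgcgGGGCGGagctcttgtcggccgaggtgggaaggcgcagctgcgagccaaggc
Wnt11, chr7:98834862-98835111, plus strand: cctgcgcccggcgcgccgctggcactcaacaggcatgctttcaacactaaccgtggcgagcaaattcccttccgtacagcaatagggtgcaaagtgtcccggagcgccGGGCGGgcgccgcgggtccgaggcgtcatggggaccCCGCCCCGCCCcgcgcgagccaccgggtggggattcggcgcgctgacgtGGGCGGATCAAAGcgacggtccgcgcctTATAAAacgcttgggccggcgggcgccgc
The Wnt11 window shown, of the first of 2 starts listed, held 1 TCF/LEF word from 51 to 45 bases before the start, directly after a GGGCGG that began 57 bases before it, and a TATAAA from 29 to 24. It held 4 matches to GGGCGG, of which those beginning at 106 and 101 share a base. The Frzb window held 1 GGGCGG from 51 to 46. The RefSeq start of that window lies within Frzb as GENCODE annotates it (up to 80447625), and so does most of the window. The Sfrp2 window held none of these words. The window of the other Wnt11 start also held none, and 56.8% of it was G and C. Of 32851 windows of the same length, 7.48% held a TCF/LEF word, 12.4% TATAAA, 33.8% CCAAT and 32.7% GGGCGG. G and C made up 63.6% of the Sfrp2, 64.4% of the Frzb and 70.8% of the Wnt11 window shown, against a median of 52.4%. A match describes letters only, and no binding was measured.

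After filtering, 13878 cells remained (3886, 3674, 1927 and 4391), with median depths of 18331 to 19516 UMIs (unique molecular identifiers, 1 per captured transcript) per library. The tdTomato transcript was at 713 and 714 CPM (UMIs of a gene scaled to the same total of UMIs in every group of cells) in the Tom+ and at 15.8 and 18.7 in the Tom- libraries. Ptprc, which encodes CD45, was at 217, 157, 223 and 188 CPM, so the libraries did not differ in leukocyte content as their CD45 labels would have it, and each is named by its label only. Cdkn2a, whose counts join the transcripts of p16 and Arf, was at 6.78, 7.10, 7.30 and 7.57 CPM, and at 3.70, 5.73, 6.28 and 6.42 in progenitor-like cells, so it was not higher in the Tom+ libraries. Libraries also shared barcodes. In all, 3555 cells carried a barcode that was deposited in another library too. Without them 16 of the mean levels recomputed lay outside their range over libraries, among them Wnt2 (1.74 CPM), Sfrp2 (131) and Frzb (19.3) in progenitor-like cells, and the Tom+ to Tom- ratios in progenitor-like cells that moved are given without them too. Since a UMI counts a captured 3′ end, levels were not divided by gene length. All intervals are exact 95% intervals and cover counting error only. Limits for levels at 0 are those of a floor of 3 counts per library, which is lower than the end of the exact interval.

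Adipose progenitor-like cells numbered 3613 (260, 1533, 107 and 1713), and at least 8 of 9 progenitor markers were raised in every cluster of the class. Mesothelial-like cells, which line the fat pad, numbered 889 (72, 388, 30 and 399), with 10 of 10 markers raised. A cluster of 746 cells (194, 242, 83 and 227) led by Saa3 and Cxcl13 had 8 of 10 mesothelial markers raised together with progenitor collagens, and stayed unnamed. Progenitor-like cells were split into 8 subsets without use of the members, the other listed Wnt genes or genes raised in leukocytes. The interstitial-like subset (142 cells, Sema3c and Dpp4 among its leading genes), the committed-like subset (505 cells, Cd36, Fgf10 and Fabp4) and the inflammatory-like subset (851 cells, Il6 and Cxcl1) were named from markers. The other subsets are called after leading genes, not always the first ones. They are Igfbp3/Inmt (1000 cells), Cxcl13/Lcn2 (600), Thbs4/Ncam1 (390), Ifit3/Rsad2 (67) and Ptch1/Gli1 (58). Differences between subsets are descriptions, since clusters were cut from the same cells. A subset's level is given for libraries with at least 20 of its cells unless stated.

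**Figure D1:**
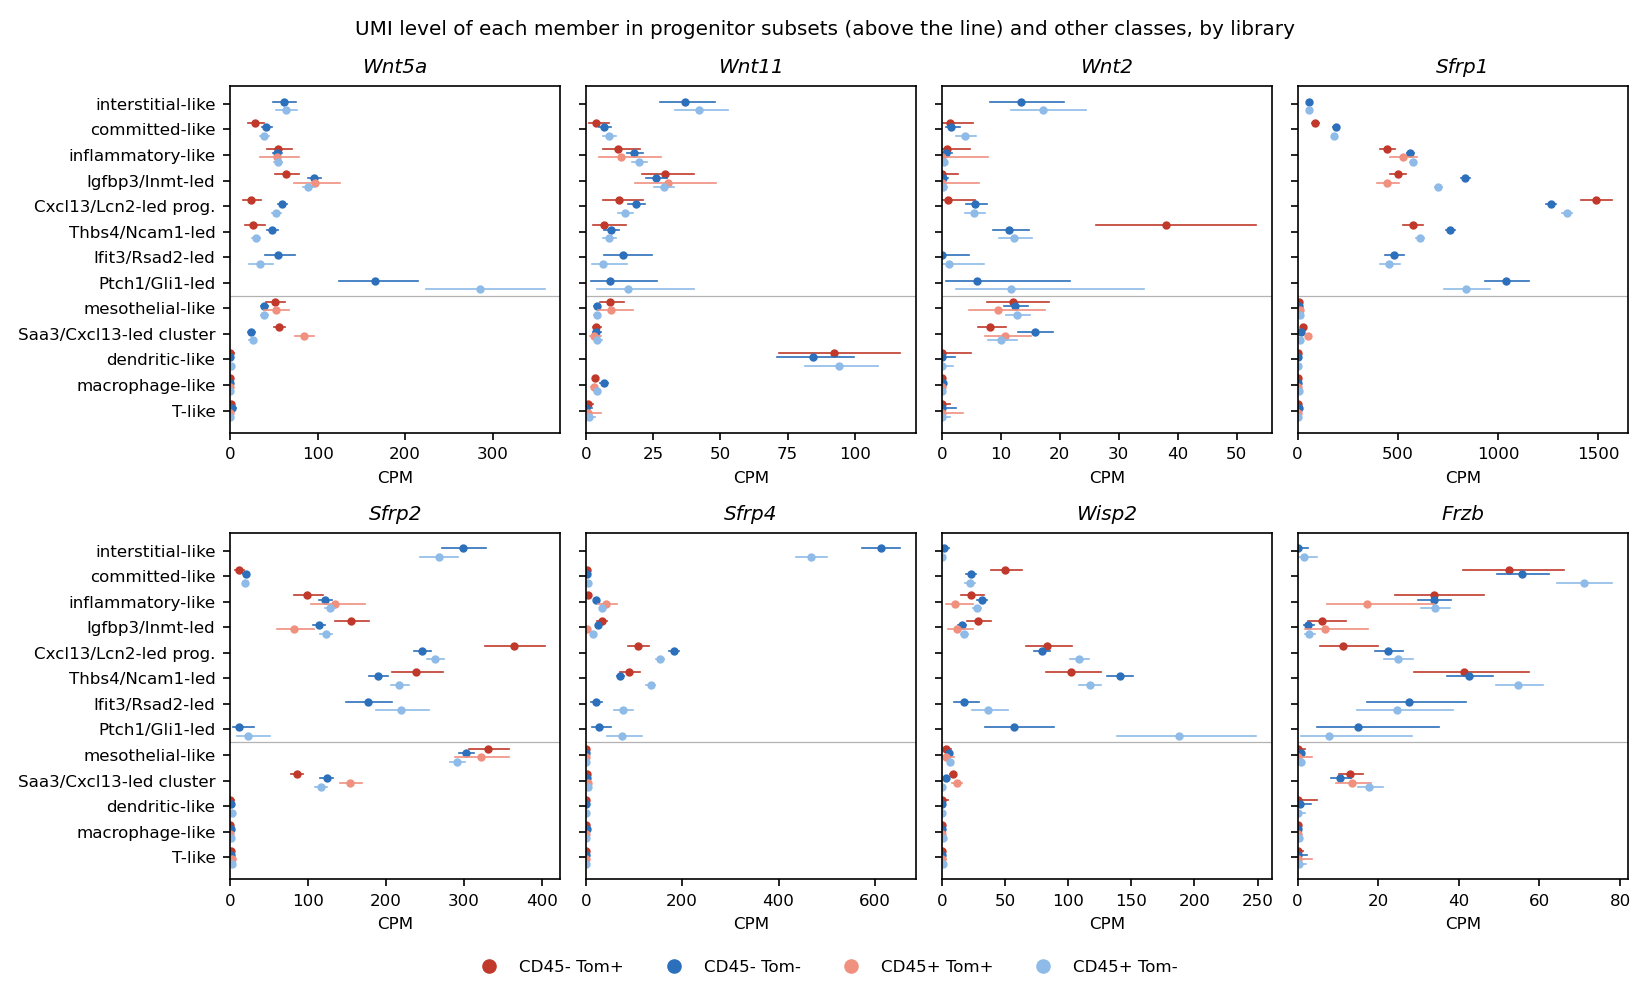
UMI level (CPM, horizontal axes) of 8 members in progenitor subsets (above the grey line) and other classes (below it), with 1 point per library of at least 20 cells and lines for the 95% counting interval. Sfrp4 is highest in the interstitial-like subset (612 and 468 CPM), Sfrp2 is near 300 CPM in mesothelial-like cells, and Wnt11 is highest in dendritic-like cells.

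Wnt5a was the ligand member with the broadest stromal expression. Progenitor-like cells had 41.0 CPM (interval 36.0 to 46.5), 62.0 (59.5 to 64.7), 52.8 (44.5 to 62.2) and 56.8 (54.6 to 59.2), and mesothelial-like cells 51.1, 39.4, 52.1 and 39.4. The Saa3/Cxcl13-led cluster had 56.2, 24.2, 84.5 and 25.7 CPM, high in both Tom+ and low in both Tom- libraries. The ranges of these classes overlapped. Macrophage-like cells had at most 0.527 CPM of Wnt5a and dendritic-like cells at most 0.997.

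Within the progenitors, Wnt5a was highest in the Ptch1/Gli1-led subset. Ptch1, Gli1 and Hhip, known Hedgehog pathway genes, were among its leading genes, but Apod, Chrdl1 and Msln ranked above them. The subset's Wnt5a level was 165 CPM (124 to 215) in 30 cells and 286 (224 to 359) in 24 cells of the Tom- libraries. In the latter, 24 of the 73 UMIs came from 1 cell. The Igfbp3/Inmt-led subset followed at 63.9, 96.2, 96.8 and 89.2 CPM. Interstitial-like cells had 61.6 and 63.7 CPM, just under that range's lower end. The other subsets had means between 34.6 and 54.4 CPM, with overlapping ranges from each to the next.

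Wnt11 was highest in dendritic-like cells rather than in a stromal class. These 236 cells had 92.4 CPM (71.9 to 117), 84.5 (71.2 to 99.5), 92.0 (60.7 to 134) and 94.2 (81.3 to 109), the third from only 14 cells. A UMI was found in 55.3%, 49.4%, 57.1% and 43.4% of them, against 0.520%, 0%, 0.676% and 0.831% of T-like cells, which were shallower (medians of 5967 to 7355 against 15297.5 to 20287 UMIs). Here 0 of 240 T-like cells allows a share of up to 1.53%. After thinning each cell to 2000 UMIs the shares in dendritic-like cells were 18.4%, 20%, 0% and 19.2%, and in T-like cells at most 0.676%. Macrophage-like cells had 3.23, 6.64, 2.94 and 4.15 CPM.

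Dendritic-like cells were not alike in Wnt11. The group led by Cd209a and Mgl2, genes of conventional type 2 dendritic cells and macrophages, and by Siglech (116 CPM), a gene of plasmacytoid dendritic cells, had 157 CPM (126.5 to 192) in 36 cells and 190 (157 to 228) in 32 cells of the Tom- libraries, and 178 (132 to 235) in 17 cells of the library labelled CD45- Tom+. The group led by H2-M2, Apol7c and Fscn1, in which Ccr7, the receptor of migrating dendritic cells, reached 2927 CPM, had 118 (85 to 158) and 137 (106 to 175). The group with Itgae and Xcr1, markers of cross-presenting dendritic cells, had 2.59 CPM in 18 cells and 9.73 in 27 cells, and in the latter all 6 UMIs came from 1 cell. The class name depended on the filters. With looser filters a cluster of 159 cells led by Plbd1 and Xcr1 was named dendritic-like. A cluster of 689 cells with Ccr7, Ccl22 and Mgl2 among its leading genes was then named monocyte-like.

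**Figure D2:**
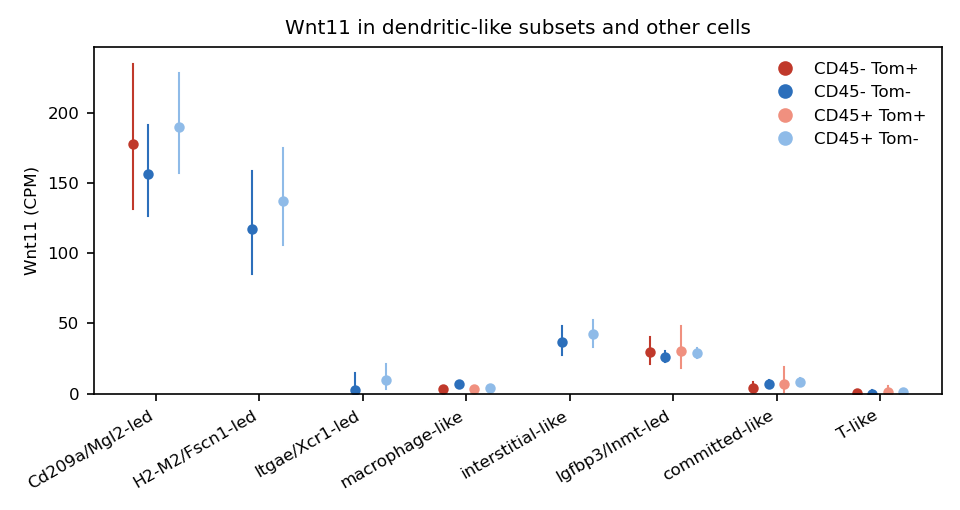
Wnt11 level (CPM) by cell group and library for groups with at least 15 cells in a library, with lines for the 95% counting interval. The Cd209a/Mgl2-led and H2-M2/Fscn1-led dendritic groups lie above the progenitor subsets, and the Itgae/Xcr1 group lies below 10 CPM.

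Among progenitors, Wnt11 was highest in the interstitial-like subset, at 36.8 CPM (27.7 to 47.9) and 42.1 (33.2 to 52.7), and then in the Igfbp3/Inmt-led subset, at 29.3, 26.2, 30.6 and 29.0. Those ranges over libraries did not overlap. Committed-like cells had 3.65, 6.82 and 8.57 CPM, overlapping the Thbs4/Ncam1-led subset. Over all progenitor-like cells Wnt11 was at 14.5, 17.4, 14.0 and 18.1 CPM.

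Wnt2, a ligand of the beta-catenin branch, was low throughout. Mesothelial-like cells had 12.1, 12.5, 9.48 and 12.8 CPM and the Saa3/Cxcl13-led cluster 8.23, 15.7, 10.8 and 10.1, with overlapping ranges. Lymphatic endothelial-like cells, nearly all of them in the Tom+ libraries, had 7.85 CPM (178 cells) and 6.37 (86 cells). Progenitor-like cells had 6.22, 3.97, 2.59 and 4.39 CPM, of which the first rested on 1 cell with 26 of the 37 UMIs. Within the progenitors, Wnt2 was found mainly in the Thbs4/Ncam1-led (37.9, 11.5 and 12.3 CPM) and interstitial-like (13.4 and 17.2) subsets, whose ranges overlapped. The same cell held 26 of the 33 UMIs behind the value of 37.9. No UMI of Wnt2 was found in T-like, dendritic-like, mast-like or neutrophil-like cells, a depth at which the limit for a single library lay at 1.5 CPM or more in dendritic-like cells.

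Sfrp1 was the main member in progenitor-like cells, at 553 CPM (534 to 572), 718 (710 to 727), 659 (629 to 690) and 674 (666 to 682). A UMI was found in 73.9%, 83.0%, 83.2% and 80.9% of them and in 1.30%, 4.58%, 0% and 3.05% of T-like cells, of which 0 of 148 allows up to 2.46%. The progenitor-like cells were deeper, with medians of 21450 to 23475 UMIs. Thinned to 2000 UMIs, the shares were 44.0%, 52.6%, 49.5% and 49.2% against 0.260%, 2.14%, 0% and 1.12%. Mesothelial-like cells had only 4.74, 9.62, 11.4 and 11.3 CPM, a range that overlapped those of natural killer-like and neutrophil-like cells. An unnamed cluster of 117 cells, mostly from the Tom+ libraries, in which 6 of 7 plasma cell markers were raised beside progenitor genes, had 414 and 540 CPM of Sfrp1 in those libraries.

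Every progenitor subset expressed Sfrp1, but over a wide range. The Cxcl13/Lcn2-led subset had 1491 CPM, 1267 and 1343 in the libraries with enough cells, which left out CD45+ Tom+. The Ptch1/Gli1-led subset had 1041 and 841. Means of 649, 622, 528 and 470 CPM followed in the Thbs4/Ncam1-led, Igfbp3/Inmt-led, inflammatory-like and Ifit3/Rsad2-led subsets, with each range overlapping the next. Committed-like cells had 88.2, 189 and 183 CPM and interstitial-like cells 56.2 and 56.0, the lowest of all subsets.

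Sfrp2 was the main member in mesothelial-like cells, at 332 CPM (306 to 359), 303 (293 to 314), 322 (289 to 358) and 292 (282 to 302). All 4 values lay above those of progenitor-like cells, which were 159.5, 149, 184 and 158. It was detected in 76.4%, 75.8%, 90.0% and 71.4% of mesothelial-like cells and in at most 2.22% of T-like cells, and after thinning in 28.2%, 31.5%, 46.7% and 29.3% against at most 0.838%. In the library labelled CD45- Tom+, 1 cell held 194 of the 630 mesothelial-like UMIs, and the level without it was 235 CPM. The Saa3/Cxcl13-led cluster, with 85.5, 124, 155 and 117 CPM, overlapped the progenitor-like range.

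Some progenitor subsets were also high in Sfrp2. The Cxcl13/Lcn2-led subset had 364, 247 and 263 CPM and the interstitial-like subset 299 and 268, with overlapping ranges. Means of 215.5 and 198 CPM were found in the Thbs4/Ncam1-led and Ifit3/Rsad2-led subsets, and of 121 and 118 in the inflammatory-like and Igfbp3/Inmt-led subsets. Committed-like cells had only 10.9, 20.5 and 19.5 CPM, next to 12.0 and 23.5 in the Ptch1/Gli1-led subset.

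Sfrp4 had its highest level in the interstitial-like subset. There it reached 612 CPM (573 to 653) in 61 cells and 468 (437 to 500) in 69 cells of the Tom- libraries, with a UMI in 96.7% and 87.0% of the cells. The 9 such cells of the library labelled CD45- Tom+ had 322 CPM (251 to 407). The Cxcl13/Lcn2-led subset had 108, 183 and 154 CPM, and the Thbs4/Ncam1-led subset 89.7, 71.4 and 135. Committed-like cells had 2.92, 2.40 and 5.04 CPM. Sfrp4 was at most 5.39 CPM in the Saa3/Cxcl13-led cluster and at most 0.986 in mesothelial-like cells. The unnamed cluster with plasma cell markers reached 20.4 CPM in 1 library and 2.95 in the other.

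Frzb, whose window before a RefSeq start is shown above, was highest in a subset with little Sfrp4. Committed-like cells had 52.5 CPM (41.1 to 66.1), 55.6 (49.5 to 62.3) and 70.9 (64.3 to 78.0), and the Thbs4/Ncam1-led subset 41.4, 42.5 and 54.8, with overlapping ranges. It was at 0 and 1.66 CPM in interstitial-like cells and at 6.16, 2.60, 6.79 and 2.86 in the Igfbp3/Inmt-led subset. The Saa3/Cxcl13-led cluster had 13.1, 10.6, 13.5 and 17.8 CPM and mesothelial-like cells at most 0.867, so that these ranges did not overlap.

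Wisp2 was at 51.3, 52.0, 48.0 and 53.6 CPM in progenitor-like cells. Single cells held 69 of the 305 and 57 of the 130 UMIs of the Tom+ libraries, and without the cell with most UMIs in each library the levels were 39.8, 49.8, 27.5 and 51.9 CPM. The Thbs4/Ncam1-led subset had 102, 141 and 117 CPM, the Cxcl13/Lcn2-led subset 83.4, 79.2 and 109, and the Ptch1/Gli1-led subset 57.0 and 188. Interstitial-like cells had 2.01 and 0 CPM. In the committed-like subset of the library labelled CD45- Tom+, all 69 UMIs came from 1 cell, while the Tom- libraries had 23.0 and 22.4 CPM. Wif1 had no UMI in any class or subset, for which the floor of 3 counts in progenitor-like cells is 0.504, 0.0851, 1.11 and 0.0708 CPM.

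The mix of members differed between cell groups. Of the summed member level, Sfrp1 made up 63.2% in progenitor-like cells (1030 CPM in sum), Sfrp2 79.8% in mesothelial-like cells (391 CPM) and Wnt11 94.6% in dendritic-like cells (95.5 CPM). In the Saa3/Cxcl13-led cluster (233 CPM) Sfrp2 made up 51.6% and Wnt5a 20.5%. Among subsets, the sum was highest in the Cxcl13/Lcn2-led one, at 1981 CPM, of which Sfrp1 was 69.0%. In interstitial-like cells (999 CPM) Sfrp4 made up 54.1% and Sfrp2 28.4%, and in committed-like cells (311 CPM) Sfrp1 made up 49.5% and Frzb 19.2%.

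**Figure D3:**
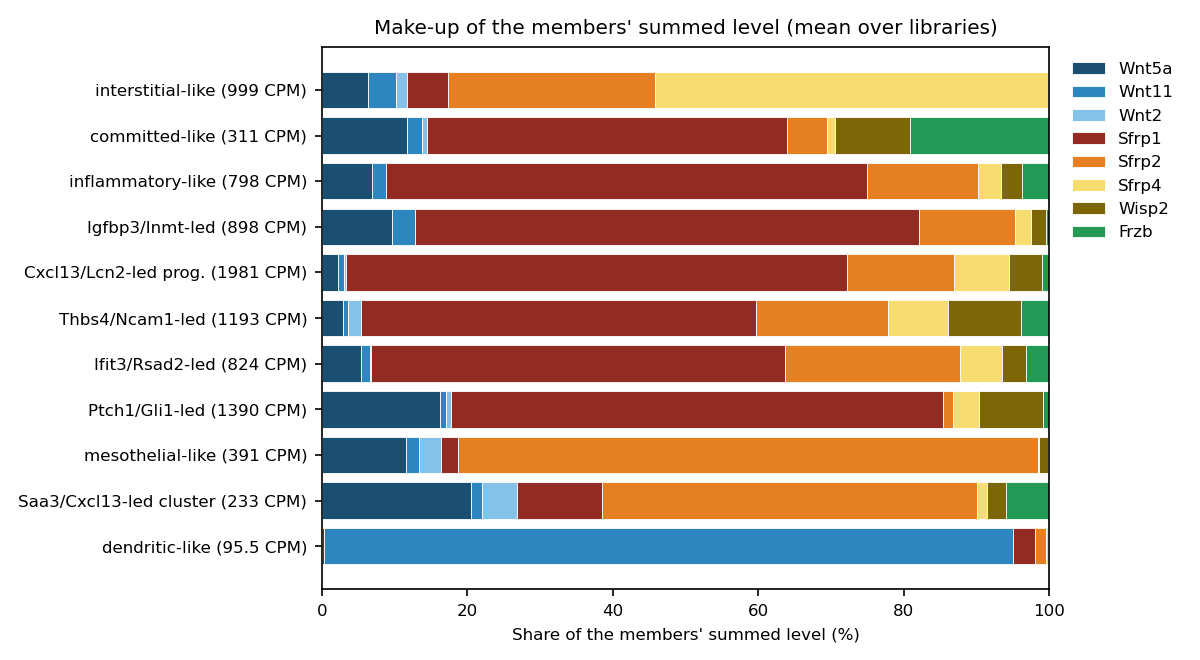
Share of each member in the summed member level (percent, mean over libraries) for progenitor subsets and other classes, with the summed CPM beside each name. Sfrp1 fills most of the bar in the Cxcl13/Lcn2-led subset (69.0%), Sfrp4 in interstitial-like cells (54.1%), Sfrp2 in mesothelial-like cells (79.8%) and Wnt11 in dendritic-like cells (94.6%).

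Interstitial-like and committed-like progenitors, taken in other work as early and late stages on the way to adipocytes, were compared within each Tom- library. In both, 7 of the 8 members with at least 5 CPM on average were more than 2-fold apart, 4 higher and 3 lower in interstitial-like cells. Among all genes tested, 16.1% and 15.3% were that far apart, and the median log2 ratio was 0.01 and 0.03 against 1.5 and 1.43 for the members. Sfrp4 was higher by 8.0 on the log2 scale (7.22 to 8.91) under the label CD45- Tom-, the first value in each pair that follows, and by 6.54 (6.01 to 7.11) under CD45+ Tom-. Sfrp2 was higher by 3.87 and 3.78, Wnt11 by 2.43 and 2.30, and Wnt2 by 3.01 and 2.15. With its 0 UMIs in interstitial-like cells set to the floor of 3 counts, Frzb was 27.7-fold lower in the first library. That is a log2 ratio of -4.79, and the exact interval allows a smaller difference, up to -4.49. In the second library the log2 ratio of Frzb was -5.42 (-7.70 to -3.86). Wisp2 had a log2 ratio of -3.52 (-5.82 to -1.94) from 3 UMIs in the first. At the same floor Wisp2 was 13.4-fold lower in the second, a log2 ratio of -3.75. The exact interval there allows a smaller difference, up to -3.43. Wnt5a was higher by 0.56 and 0.72, under 2-fold. Without shared barcodes the ratios of Sfrp2 were 4.51 and 5.04, and that of Wnt11 in the second library was 1.69.

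Sfrp1 was lower in interstitial-like cells, with log2 ratios of -1.75 and -1.71, but this and the lower Wisp2 depended on where the subset ends. With a finer clustering of classes a second cluster, led by Pdlim3, Sema3c and Pi16, was also named interstitial-like, and the ratios of Sfrp1 were 2.42 and 2.21. That of Wisp2 in the first library was then 1.92, and 1.96 with a finer clustering of subsets. With only the cluster that had most markers, Sfrp1 was lower again, at -1.47 and -1.65, and without shared barcodes it was at -2.85 and -1.73. The direction of Sfrp1 also turned with looser cell filters, at 0.14 and 0.33.

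Progenitor-like cells were then compared between Tom+ and Tom- libraries, which the study takes as p16-high and p16-low cells. As given above, Cdkn2a, a low count that joins p16 and Arf, was not higher in the Tom+ libraries. By qPCR with primers for p16, the study found p16 raised in Tom+ progenitors sorted from mice of the same age. The count here is another measure and does not test that result. In the libraries labelled CD45-, 0 of 8 members tested were past 2-fold, where 1.64% of all genes tested were. In those labelled CD45+, 1 of 7 was, Sfrp4, where 1.58% of all genes were. The median log2 ratio was -0.14 and -0.16 for the members and -0.03 and -0.04 for all genes.

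Sfrp4 was at 51.5 CPM in Tom+ and 85.7 in Tom- cells of the libraries labelled CD45-, a log2 ratio of -0.74 (-0.91 to -0.57). In the libraries labelled CD45+ it was at 34.7 and 83.0, a log2 ratio of -1.26 (-1.57 to -0.96). Both Tom+ values lay below both Tom- values. Within subsets the direction varied. Under CD45- the log2 ratio was -2.31 in inflammatory-like and -0.76 in Cxcl13/Lcn2-led cells. There it was 0.40 in Igfbp3/Inmt-led, 0.33 in Thbs4/Ncam1-led and 0.28 in committed-like cells. Under CD45+ it was 0.28 in inflammatory-like and -3.11 in Igfbp3/Inmt-led cells. The intervals of the ratios above 0 included 0. Without cells with shared barcodes the ratios were -0.18 and -0.63. With subsets weighted alike in both libraries they were -0.42 over 5 subsets and -0.23 over 2, those with enough cells. Interstitial-like cells were in neither mix, and the mix under CD45+ held only the inflammatory-like and Igfbp3/Inmt-led subsets. Interstitial-like cells, which had the highest Sfrp4 level, were 3.46%, 3.98%, 2.80% and 4.03% of progenitor-like cells. They held 1844 of the 6939 Sfrp4 UMIs of that class, and the Cxcl13/Lcn2-led subset held 2737.

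Wnt5a had log2 ratios of -0.60 (-0.79 to -0.40) and -0.11 (-0.36 to 0.14). Sfrp1 was at -0.38 (-0.43 to -0.33) and -0.03 (-0.10 to 0.04), the former -0.50 without shared barcodes. Wnt11 was at -0.26 and -0.37, with intervals that included 0. All 3 were below 0 under both labels, and the intervals of Wnt5a and Sfrp1 excluded 0 under CD45-. By subset their direction varied. Sfrp1 was at 0.24 (0.16 to 0.32) in Cxcl13/Lcn2-led cells under CD45-, and below 0 in the other subsets compared, down to -1.10 in committed-like cells. Wnt5a was at 0.04 in inflammatory-like cells under CD45- and 0.12 in Igfbp3/Inmt-led cells under CD45+, with intervals that included 0. It was below 0 in the others, down to -1.35 in Cxcl13/Lcn2-led cells. From a ligand-receptor analysis the study reports non-canonical Wnt factors as raised in p16-high progenitors. That score is another measure than the ratios here, and its genes are not named in the study's text.

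The direction of the other 4 members turned with the cells left out. Frzb was at -0.005 (-0.25 to 0.23) and -0.41 (-0.79 to -0.06), and at 1.06 and 0.55 without shared barcodes, the former past 2-fold. Wisp2 was at -0.02 and -0.16, at -0.32 (-0.53 to -0.13) and -0.92 (-1.28 to -0.58) without the cell with most UMIs in each library, and at 0.47 and 0.83 without shared barcodes. Sfrp2 was at 0.10 and 0.22, at -0.06 and 0.11 without the cell with most UMIs in each library, and at 0.28 and 0.79 without shared barcodes. With looser filters Sfrp2 under CD45+ was at -0.05, and with the 2 subsets of the CD45+ mix weighted alike at -0.23. Wnt2 was at 0.65 and -0.76, at -0.95 and -1.79 without the cell with most UMIs, and at -0.039 and 0.46 without shared barcodes. Summed plasma cell markers (7 of 7 with a UMI) were at 2029, 388, 2875 and 374 CPM in these progenitor-like cells and macrophage markers (9 of 9) at 446, 177, 200 and 175, and their part in the differences was not tested.

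**Figure D4:**
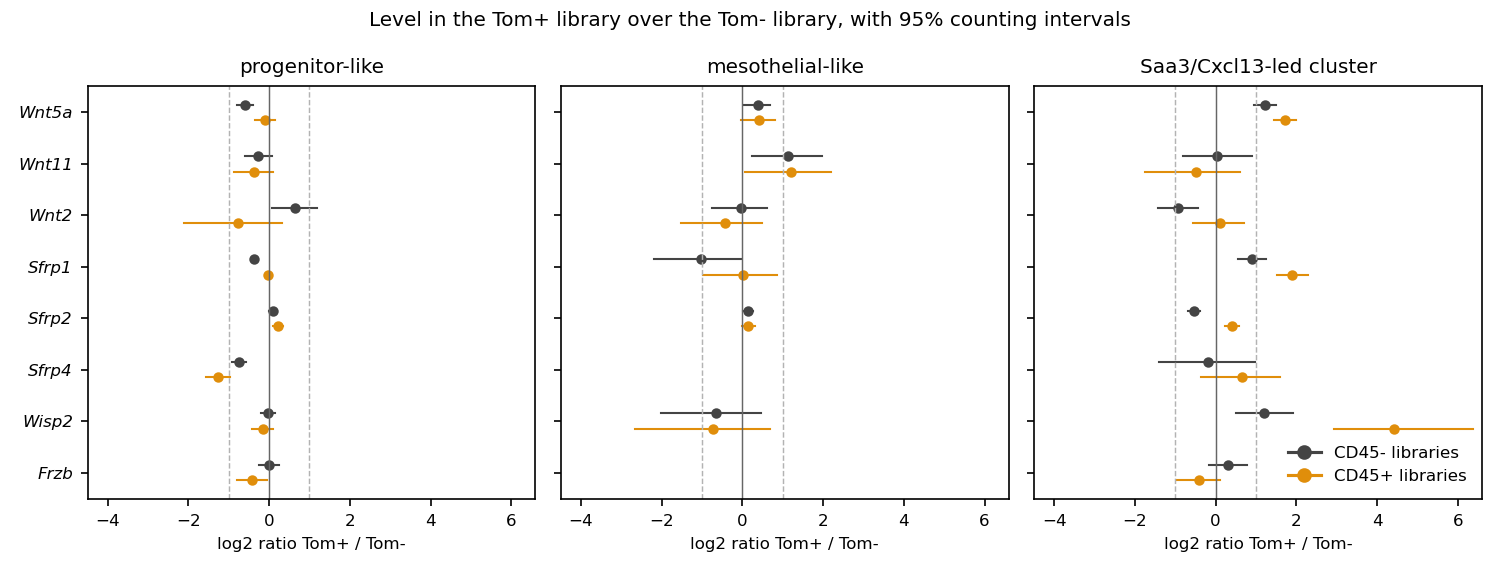
Log2 ratio of Tom+ to Tom- level for each member in progenitor-like cells, mesothelial-like cells and the Saa3/Cxcl13-led cluster, by CD45 label, with lines for the 95% counting interval and points left out where a side had 3 UMIs or fewer. Wnt5a lies above 1 in the Saa3/Cxcl13-led cluster under both labels, and Sfrp4 lies below 0 in progenitor-like cells.

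In the Saa3/Cxcl13-led cluster Wnt5a was past 2-fold higher in Tom+ under both labels. Its level of 56.2 against 24.2 CPM gave a log2 ratio of 1.21 (0.95 to 1.49) under the label CD45-, and 84.5 against 25.7 one of 1.72 (1.44 to 2.0) under CD45+. Without the cell with most UMIs in each library the ratios were 1.17 and 1.62. Sfrp1 was at 28.9 against 15.5 CPM (log2 ratio 0.90) and 50.5 against 13.5 (1.90), and without those cells at 1.87 and 1.58. Wisp2 was past 2-fold under both labels (1.19 and 4.42), but 38 of 53 and 23 of 35 Tom+ UMIs came from 1 cell each, the second ratio rested on 4 Tom- UMIs, and without the cell with most UMIs in each library the ratios were 0.53 and 3.88. In all, 2 of 6 members tested were past 2-fold under CD45- and 3 of 6 under CD45+, all higher in Tom+, against 2.10% and 3.84% of all genes. Summed plasma cell markers were at 2940, 336, 2290 and 337 CPM in this cluster, and their part was not tested. The name of such cells changed with the setting. At class resolution 2 a cluster of 385 cells led by Cxcl13 and Saa3 was named progenitor-like. With doublets kept, one of 871 cells led by Saa3 and Cxcl13 was named mesothelial-like. The mix of cells within the cluster was not held alike between Tom+ and Tom- libraries.

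In mesothelial-like cells Sfrp2 had log2 ratios of 0.13 and 0.14. Without the cell with most UMIs in each library they were -0.32 (-0.47 to -0.18) and 0.03, so that the direction under CD45- rested on 1 cell. Wnt11 was past 2-fold under both labels, at 8.95 against 4.07 CPM and 9.48 against 4.11 (1.14 and 1.21), from 17 and 10 Tom+ UMIs, and was at 0.74 and 0.83 without the cell with most UMIs in each library. Sfrp1 was past 2-fold lower under CD45-, from 9 UMIs, at 4.74 against 9.62 CPM. Under CD45+ it was at 11.4 against 11.3, but 1 cell held 8 of the 12 Tom+ UMIs, and without the cell with most UMIs in each library the log2 ratios were -1.46 and -1.40. With all cells, 2 of 5 members tested were past 2-fold under CD45- and 1 of 6 under CD45+, where 2.07% and 4.16% of all genes were past 2-fold. Summed plasma cell markers were at 1735, 401, 1096 and 395 CPM in these cells, and their part was not tested.

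The rest of the pathway was described from lists of genes set by role. Of 16 other ligands, 2 reached 20 CPM in a class of at least 50 cells of a library, Wnt4 and Wnt9a. Subsets were not counted there. Wnt10b was at a mean of 40.5 CPM in interstitial-like and 0.0614 in committed-like cells. Wnt6 was at 58.0 and Wnt5b at 27.1 in the small Ptch1/Gli1-led subset. Wnt4 was at a mean of 535 CPM in the Saa3/Cxcl13-led cluster, 284.5 in mesothelial-like cells, 163 in the Cxcl13/Lcn2-led subset and 4.77 in committed-like cells, so it was higher than any ligand member in the first 3. Wls, which carries Wnt proteins to the cell surface, was at 394 CPM in mesothelial-like and 185 in progenitor-like cells. Of 10 Frizzled receptors, 8 reached 20 CPM, among them Fzd1 (200 CPM in mesothelial-like cells), Fzd4 (230 in committed-like cells) and Fzd6 (140 in lymphatic endothelial-like cells). Of 8 co-receptors 7 did, with Lrp6 at 217 CPM in committed-like cells and Ror2 at 43.3 in interstitial-like cells.

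Of the R-spondins, which strengthen Wnt signals, Rspo1 was at 303 CPM in mesothelial-like and Rspo3 at 92.5 in lymphatic endothelial-like cells. Among 12 other secreted antagonists 4 reached 20 CPM, with Dkk3 at 100.1 CPM and Igfbp4 at 2530 in mesothelial-like cells. Dkkl1 and Sostdc1, also counted, were highest in T-like cells and at 0.129 and 0.0354 CPM in progenitor-like cells. Nov, a CCN relative of Wisp2, was at 375 CPM in interstitial-like and 1.60 in committed-like cells. Of 14 response genes 9 reached 20 CPM, some of them highest in leukocyte classes. Tcf7, Lef1 and Rnf43 were highest in T-like and Znrf3 in natural killer-like cells. In progenitor-like cells these were at 0.69, 0.37, 0.22 and 6.70 CPM. Axin2 was at 32.5 CPM in mesothelial-like and 9.22 in progenitor-like cells, and Nkd1 at 80.8 and 19.9, both feedback inhibitors switched on by beta-catenin signalling. Ccnd1 was at 150 and 12.7 and Bambi at 29.4 and 24.4, but Nkd2 at 1.91 and 7.43, the other way. Nkd1 was highest in the Saa3/Cxcl13-led cluster, at a mean of 103 CPM. Of the listed genes tested between Tom+ and Tom- progenitor-like cells, 0 of 44 were past 2-fold under CD45- and 1 of 43 under CD45+, against 1.64% and 1.58% of all genes. The 1 was Wnt4, at the threshold with a log2 ratio of 1.0 against 0.30 under CD45-, and with looser filters or doublets kept no listed gene was past 2-fold under CD45+.

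Over 54 combinations of class or subset and library, the genes whose levels most resembled each member's were found among 7250 genes by Pearson correlation of log2(CPM + 1), as a description, since combinations share libraries and depth. Wnt5a was most like Gxylt2 (r = 0.97), Wnt11 like Qpct (0.82), Wnt2 like Efna5 (0.90) and Sfrp1 like Mmp3, Svep1 and Scn7a (0.95 each). Sfrp2 was most like Adgrd1 (0.97), Sfrp4 like Pi16, Tcf21 and Opcml (0.89 each), Wisp2 like Kng2 (0.91) and Frzb like Lypd1 (0.88) and Mrap (0.87). Pi16 is a marker that named the interstitial-like subset and Mrap one that named the committed-like subset. Mrap was not particular to that subset, at 67.7 CPM there and 75.0 in inflammatory-like cells. Among the members, Wnt5a and Sfrp2 were most alike (0.93), followed by Sfrp1 and Wisp2 (0.90), and Wnt11 and Wnt2 least (0.29).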

How the data were processed

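Cells of the gonadal stromal vascular fraction were profiled in 4 libraries, 1 per group given by the labels. The authors dissociated the tissue with Liberase, sorted by flow cytometry, and made 10x Genomics 3′ libraries. They deposited raw UMI counts per gene and barcode, which Cell Ranger 3.0.2 gave on mm10 per the labels, with no normalization. Barcodes were kept, as in the study, with more than 1000 but fewer than 7000 genes and a mitochondrial share below 8%, and likely doublets (259, 364, 54 and 427, by Scrublet score) were left out.

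Cells were clustered with scanpy 1.11.5 and leidenalg 0.10.2 (2000 variable genes, 30 components, 15 neighbours, resolution 1, and 0.5 for progenitor subsets), with no batch integration and without the members, the listed Wnt genes and tdTomato. Clusters were named from marker lists. The naming thresholds, the subset resolution and the exclusion of 6143 leukocyte-raised genes from subset clustering were set after seeing the data. The members and lists were chosen with earlier results of these data known.

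UMIs were summed per class and library and given as CPM with exact Poisson intervals, shares with Clopper-Pearson intervals, and ratios with conditional exact intervals (scipy 1.17.1). A UMI count of 0 was given a floor of 3 counts. No p-value was computed, since 1 library per group leaves no replicates. Fold calls needed 2-fold and a mean of 5 CPM. All members were named, and listed genes from 20 CPM in a class of at least 50 cells of a library. Likeness was sought among genes reaching 50 CPM. Leading genes of clusters, single-cell contributions and the listed genes named below that level were picked after their values were seen. Ratio and count steps were tested on simulated data. Alternatives covered filters, doublets, resolution, cell means, thinning to 2000 UMIs, shared barcodes, subset mix and fold. Those on leukocyte genes, barcodes kept in more than 1 library, subset resolution and the cell with most UMIs were added after seeing the data.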

Additional observations from a re-analysis of the deposited data

Results flagged for a closer look

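In the Saa3/Cxcl13-led cluster, Sfrp2 moved one way under one CD45 label and the other way under the other. Its log2 ratio of Tom+ to Tom- was -0.54 in the libraries labelled CD45- (85.5 against 124 CPM) and 0.41 in those labelled CD45+ (155 against 117 CPM). Without the cell with most UMIs in each library the ratios were -0.51 and 0.48. In the Igfbp3/Inmt-led progenitor subset the ratios of Sfrp2 were 0.45 (156 against 114 CPM) and -0.59 (81.5 against 123 CPM). There 1 cell held 118 of the 202 UMIs of the library labelled CD45- Tom+, and without the cell with most UMIs in each library the ratios were -0.71 and -1.49. With 1 library per group, neither difference was tested.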

How the results depend on the processing

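No paired analysis was possible because each group is 1 library. Of 384 levels recomputed under alternatives, 261 stayed within the range of the reported values over libraries. Of 157 Tom+ against Tom- ratios 6 reversed and of 167 interstitial-like against committed-like ratios 8 did. Wnt2 in progenitor-like cells under CD45- became -0.12 with looser filters, -0.039 without shared barcodes and -0.95 without the cell with most UMIs in each library. Sfrp2 under CD45+ became -0.05 with looser filters and -0.23 with the same subset mix, and Frzb under CD45+ became 0.55 without shared barcodes. The same mix covered only 5 subsets under CD45- and 2 under CD45+. Interstitial-like against committed-like, Sfrp1 became 0.14 and 0.33 with looser filters, 2.42 and 2.21 at class resolution 2, and 1.99 and 2.01 at subset resolution 0.7. Wisp2 in the library labelled CD45- Tom- became 1.92 and 1.96 at those resolutions, where a second cluster took the interstitial-like name. The count of members past 2-fold under CD45- (0) became 1 at resolution 2, 2 when thinned, 1 without shared barcodes and 3 at 1.5-fold. Under CD45+ (1) it became 2 with looser filters, 2 when thinned, 0 without shared barcodes and 0 with the same mix. The count of listed genes under CD45- (0) became 2 at resolution 2 and 4 when thinned, and under CD45+ (1) it became 0 with looser filters, 0 with doublets kept, 2 at resolution 2, 9 when thinned and 2 without shared barcodes. Over all genes, the count past 2-fold under CD45- and CD45+ (163 and 155) became 285 and 323 with looser filters, 855 and 1823 when thinned, 5515 and 6715 with no minimum level, and 349 and 645 at 1.5-fold. At resolution 2 the count under CD45+ became 254, with the same mix 338, and with doublets kept that under CD45- became 93. The cause was not tested where no second cluster is named. Counts limit the values of the library labelled CD45+ Tom+, which held 107 progenitor-like and 30 mesothelial-like cells.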
